A study of Homo sapiens with 16 samples.

Results

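Neuronal and synaptic adhesion organisers are the surface and secreted proteins by which neurons recognise their partners and build the 2 sides of a synapse. They were followed here as 47 genes, chosen by name and family, in the human neuroblastoma cell line SK-N-SH, to which the antipsychotic risperidone had been given. Of the 47 genes, 46 had a probe set that names them alone, out of 18239 genes on the array, and CADM2 was not analysed here. LRRTM3, SLITRK1, SLITRK3 and SLITRK4, with group means of 3.27 to 3.52, lay among the lowest 25% of genes by mean level, so 42 members stood among the 13680 genes tested. A gene with several probe sets was represented by the one with the highest mean over the 16 arrays.

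RNA of each sample was hybridised to a Human Genome U219 array, and the values below are the authors' log2 RMA values, on which a difference of 1 is a 2-fold change. The 4 groups, of 4 arrays each, were untreated cells and those given 10 µM risperidone for 6 h, 24 h and 48 h. Cells of every group had grown for 48 h before exposure. The treatment protocol states that controls received the DMSO vehicle, while the sample labels call them untreated and give them no harvest time, so exposure and time in culture cannot be told apart in a comparison with them. The arrays are labelled biological replicates without a description of separate cultures, so p-values measure only the spread between these samples, which may be technical. SK-N-SH is a mixed line of neuroblast-like and substrate-adherent cells, and in bulk RNA fewer cells of a type and less RNA per cell cannot be told apart.

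At a synapse, presynaptic neurexins bind a set of postsynaptic partners that includes neuroligins, LRRTM proteins and calsyntenins. Cerebellins are secreted bridges between neurexins and glutamate receptors of the delta type, FLRT proteins bind latrophilins and UNC5 receptors, and SLITRK proteins bind presynaptic receptor tyrosine phosphatases. Contactins are lipid-anchored proteins of the immunoglobulin superfamily that work with the contactin-associated proteins along axons, and NCAM1, L1CAM and the CADM proteins mediate adhesion between axons and their neighbours.

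More members were higher than lower in risperidone-exposed cells at each time, and the 3 comparisons share the untreated arrays. At 6 h, 26 of 42 members (61.9%) were higher than in untreated cells at an adjusted p under 0.05 in limma, and 36.6% of all tested genes were. A further 8 members (19%) were lower at 6 h, as were 16.7% of all tested genes. At 24 h, 24 members (57.1%) were higher, against 35.3% of all tested genes, and 8 were lower, against 16.9% of all tested genes. At 48 h, 26 members (61.9%) were higher, against 36% of all tested genes, and 7 (16.7%) were lower, against 21% of all tested genes. The median change of the members was 0.27, 0.33 and 0.31 on the log2 scale at 6, 24 and 48 h, beside 0.09, 0.09 and 0.08 over all tested genes. The median size of change, whatever its sign, was 0.42, 0.49 and 0.48 for the members, beside 0.18, 0.18 and 0.20 over all tested genes.

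**Figure D1:**
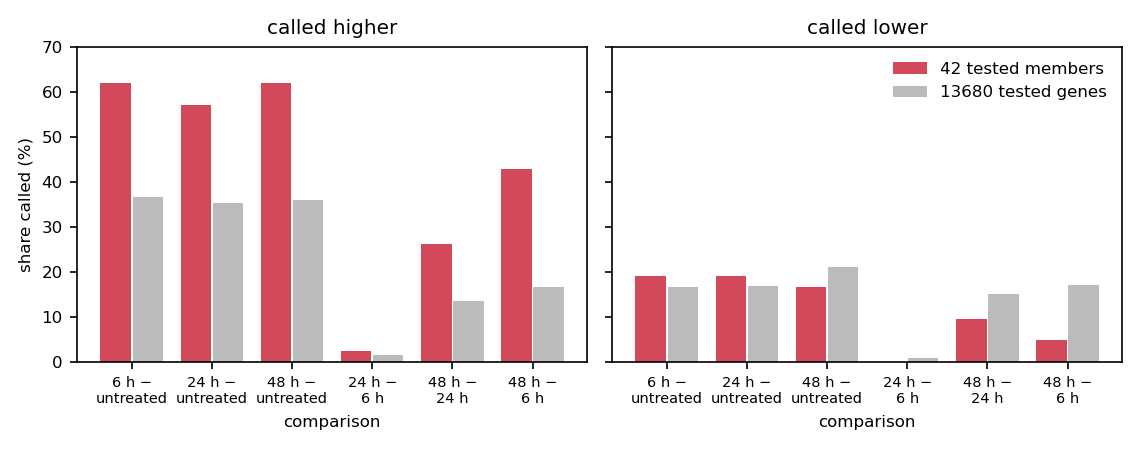
Share of genes called higher (left panel) and lower (right panel) at an adjusted p under 0.05 in each of the 6 comparisons, in percent; red bars are the 42 tested members and grey bars all 13680 tested genes. The red bars for higher calls stand at 57.1% to 61.9% in the comparisons with untreated cells, against grey bars of 35.3% to 36.6%.

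Changes of at least 2-fold were found in 14 members at 1 or more times. Of these, 9 (21.4%) were higher, which 1.9% of all tested genes were by the same rule, and 5 (11.9%) were lower, which 4.85% of all tested genes were. The members higher by this rule were CNTN1, CNTN4, CNTN6, CNTNAP4, FLRT1, CBLN2, CBLN4, CLSTN2 and NELL1. Those lower were CNTN3, CNTNAP2, NRXN3, FLRT2 and SLITRK5. CNTN3, FLRT2 and SLITRK5 passed the filter on low levels only through their untreated arrays and so had to differ, and nothing is read from the share of members that were lower. At 6 h the contactins, contactin-associated proteins, neurexins, neuroligins, FLRT, LRRTM and SLITRK proteins each had members called in opposite directions. For the contactins and the SLITRK proteins the only lower members were CNTN3 and SLITRK5, so nothing is read from those splits. For the LRRTM proteins the split rests on a call of LRRTM4 that its other probe sets did not share. The higher calls of FLRT1, NLGN2, NLGN3 and SLITRK6 at 6 h depend on the scaling, as given below.

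The direction of the smaller rises depends on what the arrays are scaled to. Under the deposited scaling 68.7% of all calls at 6 h were higher, and under cyclic loess 49.4% were. Cyclic loess still gave 20 of 42 members higher and 9 lower at 6 h, beside 3151 higher and 3223 lower of the 13680 tested genes. When each array was centred on its adrenergic identity genes, an alternative chosen after the data had been seen, the median change of all tested genes was -0.30, -0.34 and -0.40 at 6, 24 and 48 h, in place of 0.09, 0.09 and 0.08. Under that centring 12 of 42 members were higher at each time, and 19, 20 and 21 were lower. Of the 13680 tested genes, 697, 681 and 872 were higher under it, and 10023, 10545 and 10874 were lower. Every member with a change of at least 1 kept its sign and its call, at the times at which it reached that size, in every scaling run.

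**Figure D2:**
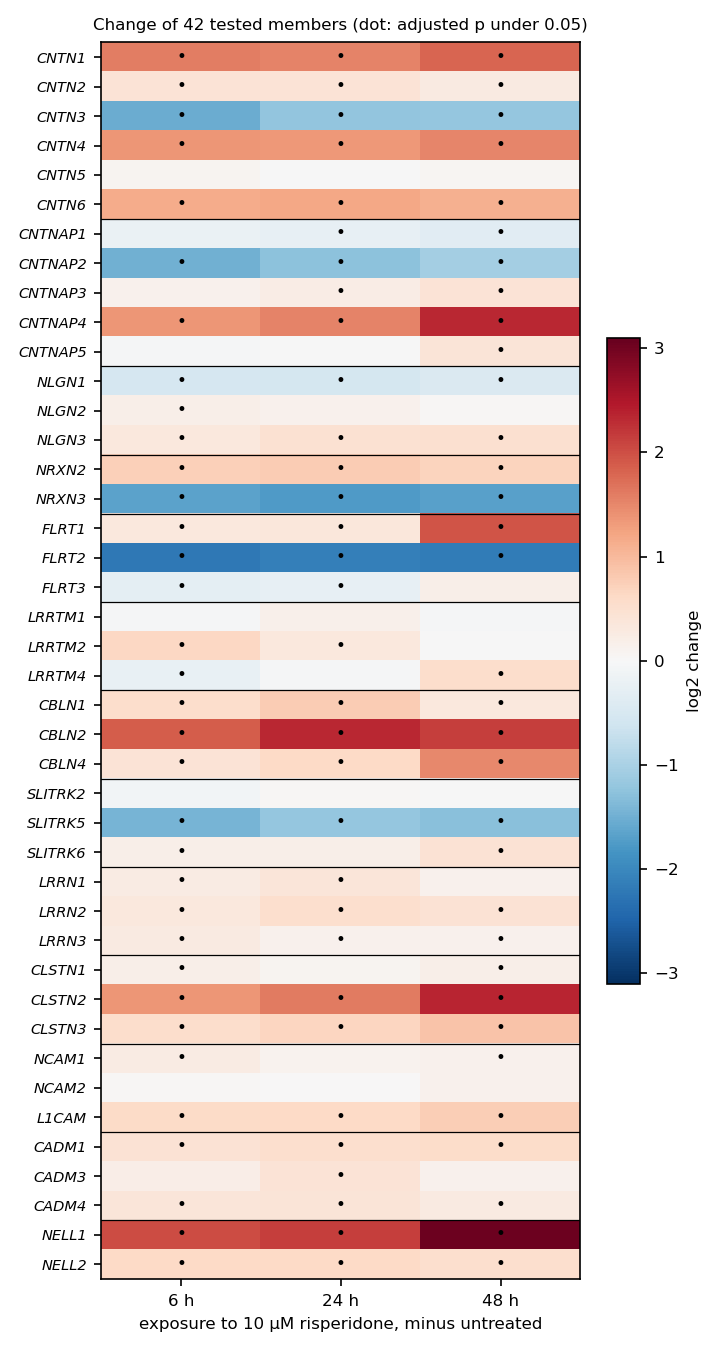
Change on the log2 scale of the 42 tested members at 6, 24 and 48 h of 10 µM risperidone, minus untreated, with red for higher and blue for lower; families are separated by lines and a dot marks an adjusted p under 0.05. The deepest red is NELL1 at 48 h (3.04) and the deepest blue is FLRT2 at 6 h (-2.21), whose exposed values lie under the limit of the lowest genes, 3.65.

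The contactins split into rises of CNTN1, CNTN2, CNTN4 and CNTN6, a fall of CNTN3, and no call for CNTN5. CNTN1, which pairs with a contactin-associated protein where myelin meets the axon, had log2 values of 8.89, 9.19, 8.91 and 8.92 in untreated arrays, 10.55, 10.59, 10.64 and 10.45 at 6 h, 10.36, 10.52, 10.62 and 10.54 at 24 h, and 10.81, 10.87, 10.77 and 10.70 at 48 h. Every exposed array lay above every untreated one, and the 48 h arrays lay above those of both earlier times. Its change was 1.58, 1.53 and 1.81 (SE 0.07 each; limma adjusted p 7.33e-12, 1.25e-11 and 1.21e-12), a 3.51-fold rise at 48 h. The difference between 48 h and 24 h, 0.28 ± 0.07 (SE), also passed (adjusted p = 0.00741). CNTN1's 4 other probe sets had changes of 0.35 to 1.67 at 6 h.

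CNTN4 and CNTN6, axonal contactins of the same subgroup, are next to each other on chromosome 3 with no protein-coding gene between them in the RefSeq annotation. CNTN4 had values of 6.96, 7.12, 7.12 and 6.76 in untreated arrays, 8.30, 8.42, 8.43 and 8.33 at 6 h, 8.15, 8.39, 8.42 and 8.34 at 24 h, and 8.44, 8.49, 8.59 and 8.45 at 48 h. The exposed arrays did not overlap the untreated ones, and the rise was 1.38, 1.33 and 1.50 (SE 0.08; limma adjusted p at most 1.95e-10). CNTN6 had values of 4.64, 4.75, 4.35 and 4.51 in untreated arrays, 5.62, 5.65, 5.94 and 5.67 at 6 h, 5.61, 5.81, 5.82 and 5.82 at 24 h, and 5.65, 5.53, 5.60 and 5.91 at 48 h. All exposed arrays were again above all untreated ones, with rises of 1.16, 1.20 and 1.11 (SE 0.10; adjusted p at most 3.01e-08). Neither gene differed between exposure times at the threshold. CNTN2, the contactin that pairs with CNTNAP2 beside the nodes of myelinated axons, rose by 0.42, 0.42 and 0.29 (SE 0.08 each; limma adjusted p 0.000352, 0.000326 and 0.00611), but its sign at 24 h and 48 h turned under the adrenergic centring. The 2 other probe sets of CNTN2 were at -0.08 and 0.13 at 6 h, -0.11 and 0.21 at 24 h, and -0.06 and 0.16 at 48 h.

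CNTN3 moved the other way from CNTN1, CNTN2, CNTN4 and CNTN6. Its values were 4.87, 4.97, 4.74 and 4.71 in untreated arrays, 3.38, 3.14, 3.37 and 3.25 at 6 h, 3.41, 3.85, 3.64 and 3.51 at 24 h, and 3.40, 3.73, 3.57 and 3.76 at 48 h. All 12 exposed arrays were below all untreated ones, and CNTN3 fell, with changes of -1.54, -1.22 and -1.21 (SE 0.10; limma adjusted p at most 1.35e-08). Its mean in exposed cells was 3.29 to 3.62, under the 3.65 at which the lowest 25% of genes ended, so it was tested by way of its untreated level. Set against that limit, its fall was at least 2.25-fold, and its other probe set, also dim, had changes of -0.50, -0.26 and -0.30. The value at 48 h exceeded that at 6 h by 0.33 (adjusted p = 0.0144), a call lost without the 6 h replicate 2 array (adjusted p = 0.0505). CNTN5, called at no time, had group means of 3.77, 3.87, 3.76 and 3.82 in untreated cells and at 6, 24 and 48 h.

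Among the contactin-associated proteins, the transmembrane partners of the contactins, CNTNAP2 and CNTNAP4 changed most and in opposite directions. CNTNAP4, a member found at inhibitory and dopaminergic terminals in mouse, had values of 4.34, 4.14, 3.79 and 4.34 in untreated arrays, 5.39, 5.66, 5.61 and 5.46 at 6 h, 5.94, 5.51, 5.73 and 5.59 at 24 h, and 6.44, 6.45, 6.60 and 6.47 at 48 h. The untreated arrays lay below all others and the 48 h arrays above all others, while the 6 h and 24 h arrays overlapped. The rise was 1.38, 1.54 and 2.34 (SE 0.11; limma adjusted p 1.75e-08, 4.1e-09 and 1.28e-11), or 5.05-fold at 48 h. Between 24 h and 48 h it gained 0.80 ± 0.11 (SE; adjusted p = 5.67e-05).

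CNTNAP2, which gathers potassium channels beside the nodes of myelinated axons, had values of 7.70, 7.54, 7.29 and 7.28 in untreated arrays, 6.15, 6.02, 6.00 and 5.71 at 6 h, 6.14, 6.24, 6.09 and 6.21 at 24 h, and 6.39, 6.36, 6.46 and 6.43 at 48 h. The exposed arrays were all lower than the untreated ones, and those of 48 h were above those of 6 h. CNTNAP2 fell, with changes of -1.48, -1.28 and -1.04 (SE 0.09; limma adjusted p 5.85e-10, 4.15e-09 and 4.23e-08), and its 48 h level exceeded its 6 h level by 0.44 (adjusted p = 0.00156). Its other probe sets disagreed, with 6 h changes from -1.68 to -0.04, and 1 of the 3 was at -1.68 at both 6 h and 48 h.

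CNTNAP1, the partner of CNTN1 at paranodes, fell, with changes of -0.26 at 24 h and -0.35 at 48 h (SE 0.09; limma adjusted p 0.0245 and 0.00324), and its 24 h call was lost without any 1 of 4 arrays, numbers 1 and 3 of the untreated and 2 and 3 of the 24 h group (adjusted p between 0.0609 and 0.0884). CNTNAP3 rose by 0.23 at 24 h and 0.43 at 48 h (SE 0.07; adjusted p 0.0157 and 9.71e-05), with its 24 h call lost without untreated replicate 3 or 24 h replicate 3 (adjusted p 0.058 and 0.0633). CNTNAP3 has near-identical copies in the genome, and its probe set may read them too. CNTNAP5 was called at 48 h alone, at 0.40 ± 0.09 (adjusted p = 0.000837), and its changes at 6 h and 24 h were -0.03 and -0.01. Under the adrenergic centring the signs of CNTNAP3, at 24 h and 48 h, and of CNTNAP5 turned.

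The neurexins, the presynaptic hubs of this system, were represented by NRXN2 and NRXN3, which moved apart. NRXN3 had values of 5.83, 5.54, 5.58 and 5.86 in untreated arrays, 4.01, 4.29, 3.92 and 3.92 at 6 h, 3.95, 3.98, 4.02 and 3.87 at 24 h, and 3.81, 4.02, 4.05 and 4.23 at 48 h. The exposed arrays were all below the untreated ones and overlapped each other. NRXN3 fell, with changes of -1.67, -1.75 and -1.68 (SE 0.10; limma adjusted p at most 2.2e-10), or 3.36-fold at 24 h, and its other probe set had changes of -0.92, -0.90 and -0.95. NRXN2 rose by 0.75, 0.78 and 0.69 (SE 0.05; adjusted p at most 4.88e-09), with every exposed array above every untreated one, and its 2 other probe sets had changes of 0.72 to 0.89.

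Of the neuroligins, the postsynaptic receptors for neurexins, NLGN1 was lower and NLGN3 higher at each time. NLGN1, which acts at excitatory synapses, fell, with changes of -0.51, -0.55 and -0.46 (SE 0.12; limma adjusted p 0.00135, 0.000677 and 0.00273), with no overlap between exposed and untreated arrays. Its mean was 4.22 in untreated cells and 3.71, 3.67 and 3.76 at 6, 24 and 48 h. These exposed means lay just above the 3.65 limit of the lowest genes. The other probe set of NLGN1, dim in every group, had smaller changes of -0.18, -0.23 and -0.21. NLGN3, found at both excitatory and inhibitory synapses, rose by 0.32, 0.46 and 0.51 (SE 0.06; adjusted p at most 0.000244), and its sign at 6 h turned under the adrenergic centring. The 3 other probe sets of NLGN3 had smaller changes, 0.02 to 0.29 at 6 h, -0.02 to 0.27 at 24 h and -0.005 to 0.20 at 48 h. NLGN2, the neuroligin of inhibitory synapses, was called at 6 h alone, at 0.18 ± 0.07 (adjusted p = 0.0396), a call lost without any 1 of 5 arrays, numbers 2, 3 and 4 of the untreated and 3 and 4 of the 6 h group (adjusted p between 0.0522 and 0.143), and its sign turned under the adrenergic centring.

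The FLRT proteins held a fall of FLRT2 to the level of the lowest genes and the largest late rise among the members. FLRT2, a chemorepellent ligand of UNC5 receptors in mouse cortex, had values of 4.92, 5.37, 5.65 and 5.44 in untreated arrays, 3.14, 3.08, 3.23 and 3.07 at 6 h, 3.28, 3.09, 3.31 and 3.24 at 24 h, and 3.41, 2.97, 3.20 and 3.13 at 48 h. No exposed array came within 1 log2 unit of the untreated ones, and the 3 exposed groups overlapped. FLRT2 fell, with changes of -2.21, -2.12 and -2.17 (SE 0.12; limma adjusted p at most 1.43e-10). Its exposed means of 3.13 to 3.23 lie under the 3.65 limit of the lowest genes, so it too was tested by way of its untreated level. Set against that limit, its fall was at least 3.24-fold, and its 2 other probe sets, both dim, were at -0.05 and 0.02 at 6 h. NRXN3 and FLRT2, both lower, lie on chromosome 14 with 7 protein-coding genes between them.

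FLRT1 had values of 3.88, 3.79, 3.68 and 3.89 in untreated arrays, 4.12, 4.04, 4.19 and 4.18 at 6 h, 4.26, 4.23, 4.15 and 3.96 at 24 h, and 5.55, 5.53, 6.05 and 5.90 at 48 h. The 6 h and 24 h arrays were slightly above the untreated ones, and the 48 h arrays stood apart from all of them. Its rise was 0.32 and 0.34 at 6 h and 24 h (SE 0.10; limma adjusted p 0.0128 and 0.00935) and 1.95 at 48 h (adjusted p = 3.71e-11), and the step of 1.61 between 48 h and 24 h (adjusted p = 1.81e-08) was the largest of any member between 2 exposure times next to each other. Under the adrenergic centring the small rises at 6 h and 24 h turned to -0.07 and -0.08. FLRT1 overlaps MACROD1 in the genome, and MACROD1 rose by 0.54, 0.62 and 0.59 (SE 0.11) with a difference of -0.03 between 48 h and 24 h.

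FLRT3 fell, with changes of -0.30 at 6 h and -0.25 at 24 h (SE 0.10; limma adjusted p 0.0182 and 0.0437), and at 48 h its change of 0.19 was not called. The 48 h level exceeded the 24 h level by 0.44 (adjusted p = 0.00285), with no overlap between the groups. The 6 h call was lost without untreated replicate 1 or 6 h replicate 3 (adjusted p 0.0551 and 0.0607). The 24 h call was lost without any 1 of 5 arrays, numbers 1, 2 and 3 of the untreated and 2 and 3 of the 24 h group (adjusted p between 0.0625 and 0.144).

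**Figure D3:**
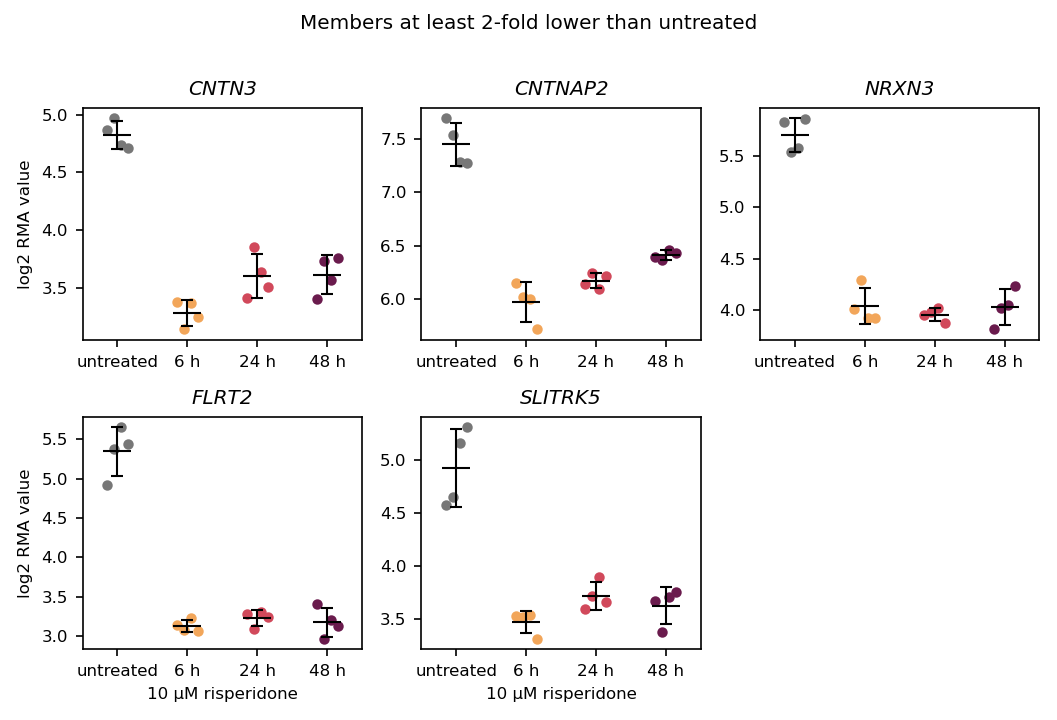
Log2 RMA values of the 5 members at least 2-fold lower than untreated, by group, with 1 point per array and the mean ± SD of 4 arrays as bars; each panel has its own axis, which does not start at 0. In every panel the 12 exposed arrays lie below the 4 untreated ones, for FLRT2 at 2.97 to 3.41 against 4.92 to 5.65.

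Promoters of 5 members are shown, of which CNTNAP4, FLRT1 and CLSTN2 rose again between 24 h and 48 h and NRXN3 and FLRT2 fell. Each runs from 250 bases before to 50 bases after the RefSeq start on GRCh38.p14, on the plus strand and is the first entry that the table used gives for its gene. CNTNAP4 lies at chr16:76277151-76277450, FLRT1 at chr11:64035681-64035980, CLSTN2 at chr3:139934935-139935234, NRXN3 at chr14:78170123-78170422 and FLRT2 at chr14:85529894-85530193. Capitals mark the cyclic AMP response element TGACGTCA, the only 1 of the 4 motifs searched that these 5 hold. The promoters of CNTN1, which also rose again after 24 h, and of CNTN3, CNTNAP2 and SLITRK5, which also fell, are not printed. That of CNTN1 holds the TEAD motif CATTCC, and the others hold none of the 4.
CNTNAP4, higher: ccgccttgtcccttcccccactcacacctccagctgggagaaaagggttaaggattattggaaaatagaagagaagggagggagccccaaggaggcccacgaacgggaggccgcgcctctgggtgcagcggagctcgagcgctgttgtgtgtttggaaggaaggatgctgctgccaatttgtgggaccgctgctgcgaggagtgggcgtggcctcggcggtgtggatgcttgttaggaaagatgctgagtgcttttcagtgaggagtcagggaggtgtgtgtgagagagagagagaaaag
FLRT1, higher: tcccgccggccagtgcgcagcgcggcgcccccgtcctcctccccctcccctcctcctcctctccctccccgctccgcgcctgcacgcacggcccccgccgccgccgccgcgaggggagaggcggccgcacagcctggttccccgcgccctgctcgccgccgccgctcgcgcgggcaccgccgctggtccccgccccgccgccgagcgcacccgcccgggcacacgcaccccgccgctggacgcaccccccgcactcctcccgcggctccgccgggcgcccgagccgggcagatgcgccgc
CLSTN2, higher: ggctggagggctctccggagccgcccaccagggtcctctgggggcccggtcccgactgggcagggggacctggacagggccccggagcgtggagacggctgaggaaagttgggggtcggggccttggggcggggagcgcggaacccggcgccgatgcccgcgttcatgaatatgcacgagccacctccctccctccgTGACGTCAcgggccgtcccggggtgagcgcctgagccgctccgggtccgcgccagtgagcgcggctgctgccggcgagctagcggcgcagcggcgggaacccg
NRXN3, lower: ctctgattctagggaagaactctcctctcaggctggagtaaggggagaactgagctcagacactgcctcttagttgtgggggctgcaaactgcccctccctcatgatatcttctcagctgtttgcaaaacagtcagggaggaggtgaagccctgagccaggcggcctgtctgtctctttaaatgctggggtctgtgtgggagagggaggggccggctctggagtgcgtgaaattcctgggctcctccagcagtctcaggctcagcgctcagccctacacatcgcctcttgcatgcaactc
FLRT2, lower: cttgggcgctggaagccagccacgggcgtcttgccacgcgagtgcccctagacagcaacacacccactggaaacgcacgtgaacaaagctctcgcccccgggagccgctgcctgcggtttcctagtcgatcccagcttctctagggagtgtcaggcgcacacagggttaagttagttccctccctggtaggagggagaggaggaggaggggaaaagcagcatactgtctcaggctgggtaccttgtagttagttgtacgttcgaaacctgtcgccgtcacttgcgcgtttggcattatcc

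Of the 42 tested members, 34 had a promoter in the table used, and NELL1 and CBLN4 did not. Searched on both strands, TGACGTCA was in 3 of the 34, CLSTN2, CLSTN3 and LRRTM2, and in 1.98% of the 27305 promoters in that table. The TEAD motif CATTCC was in 7 of the 34, CADM3, CNTN1, CNTN6, CNTNAP1, FLRT3, LRRN3 and NLGN2, and in 14% of all promoters. The AP-1 motif TGANTCA was in 2 of the 34, NLGN1 and SLITRK6, and in 7.76% of all promoters, and TATAAA was in LRRTM2 alone and in 12% of all promoters. A match is a run of letters in this window and is not evidence of a bound site.

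All 3 cerebellins, the secreted bridges of the synaptic cleft, were higher at each time, except that CBLN1 at 48 h turned to -0.14 under the adrenergic centring. CBLN2 had values of 5.27, 5.51, 5.70 and 5.35 in untreated arrays, 7.43, 7.28, 7.40 and 7.19 at 6 h, 7.92, 7.78, 7.70 and 7.77 at 24 h, and 7.73, 7.45, 7.70 and 7.55 at 48 h. Each exposed group stood clear of the untreated arrays, and the 24 h arrays stood clear of the 6 h ones. The rise was 1.87, 2.33 and 2.15 (SE 0.09; limma adjusted p at most 1.39e-11), or 5.05-fold at 24 h, and its other probe set had smaller changes of 0.29, 0.92 and 0.52. CBLN2 was the only member called between 24 h and 6 h, at 0.47 ± 0.09 (adjusted p = 0.00896).

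CBLN4 had values of 5.32, 5.26, 4.93 and 5.43 in untreated arrays, 5.58, 5.80, 5.65 and 5.58 at 6 h, 5.94, 5.80, 5.96 and 5.75 at 24 h, and 6.80, 6.67, 6.94 and 6.48 at 48 h. The exposed arrays were all above the untreated ones and the 48 h arrays above all the rest. The rise was 0.42, 0.63 and 1.49 (SE 0.10; limma adjusted p 0.00279, 7.59e-05 and 1.82e-09), of which 0.86 was gained between 24 h and 48 h (adjusted p = 1.5e-05). CBLN1, best known from synapses of cerebellar granule cells on Purkinje cells, had values of 5.41, 5.58, 5.91 and 5.59 in untreated arrays, 6.20, 6.27, 6.12 and 6.08 at 6 h, 6.29, 6.45, 6.47 and 6.42 at 24 h, and 6.07, 5.92, 5.71 and 6.13 at 48 h. Its arrays were highest at 24 h, and those of 48 h overlapped the untreated ones. CBLN1 rose by 0.55, 0.79 and 0.34 (SE 0.10; limma adjusted p 0.000166, 3.42e-06 and 0.00724), and its 48 h level was below its 24 h level by 0.45 (adjusted p = 0.0023).

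Of the LRRTM proteins, leucine-rich postsynaptic partners of neurexins and glypicans, LRRTM2 was called higher at 6 h and 24 h and LRRTM4 at 48 h. The only lower call against untreated cells was that of LRRTM4 at 6 h, which its other probe sets did not share. LRRTM2 had values of 6.02, 6.09, 6.36 and 5.93 in untreated arrays, 6.75, 6.68, 6.89 and 6.62 at 6 h, 6.48, 6.49, 6.34 and 6.40 at 24 h, and 6.22, 6.14, 6.09 and 5.91 at 48 h. It was highest at 6 h, and the 48 h arrays overlapped the untreated ones. LRRTM2 rose by 0.64 at 6 h and 0.33 at 24 h (SE 0.09; limma adjusted p 9.87e-06 and 0.00431), its 24 h sign turned under the adrenergic centring, and its change at 48 h was -0.01. Its 48 h level was below its 6 h level by 0.65 (adjusted p = 2.78e-05) and below its 24 h level by 0.34 (adjusted p = 0.00738). LRRTM2 overlaps CTNNA1 in the genome, and CTNNA1 fell by 0.36 at each time.

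LRRTM4 had values of 4.78, 4.77, 4.58 and 4.69 in untreated arrays, 4.71, 4.35, 4.34 and 4.50 at 6 h, 4.66, 4.65, 4.65 and 4.73 at 24 h, and 5.16, 5.43, 5.12 and 5.33 at 48 h. The 6 h arrays overlapped the untreated ones, and the 48 h arrays were above all others. LRRTM4 rose by 0.56 at 48 h (SE 0.08; limma adjusted p = 1.65e-05), where its 3 other probe sets had changes of 0.35 to 0.92. Its change of -0.23 at 6 h (adjusted p = 0.0256) was not shared by the other probe sets, at 0.04 to 0.22, and was lost without any 1 of 4 arrays, numbers 1 and 2 of the untreated and 2 and 3 of the 6 h group (adjusted p between 0.0644 and 0.0865). LRRTM1 was called at no time, with group means of 3.70, 3.67, 3.85 and 3.65 in untreated cells and at 6, 24 and 48 h, and LRRTM3 was dim.

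Of the 6 SLITRK proteins, postsynaptic organisers with leucine-rich repeats, 3 were dim and SLITRK2 was called at no time, with group means from 3.77 to 3.88. SLITRK5, a partner of the neurotrophin receptor TrkB in mouse striatum, had values of 4.58, 4.65, 5.16 and 5.31 in untreated arrays, 3.53, 3.52, 3.54 and 3.32 at 6 h, 3.60, 3.72, 3.90 and 3.66 at 24 h, and 3.67, 3.38, 3.71 and 3.76 at 48 h. The exposed arrays were all below the untreated ones, which were themselves split into a lower and a higher pair. SLITRK5 fell, with changes of -1.45, -1.21 and -1.29 (SE 0.14; limma adjusted p 1.14e-07, 1.07e-06 and 3.18e-07), with its means of 3.48 at 6 h and 3.63 at 48 h under the limit of the lowest genes, against which its fall at those times was at least 2.42-fold. Its other probe set, dim in every group, was at -0.04 at 6 h and -0.01 at 24 h and 48 h. With the mean of all probe sets SLITRK5, FLRT2 and NLGN1 were no longer among the genes tested. SLITRK6, needed for innervation of the inner ear in mouse and close to SLITRK5 on chromosome 13 with 2 protein-coding genes between them, rose by 0.45 at 48 h (SE 0.08; adjusted p = 8.36e-05), but with its sign turned under the adrenergic centring. Its smaller call at 6 h, 0.19 (adjusted p = 0.0429), was lost without any 1 of 6 arrays, untreated replicates 3 and 4 and each of the 6 h ones (adjusted p 0.0561 to 0.16).

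The calsyntenins, postsynaptic proteins of the cadherin superfamily, were higher wherever called, but CLSTN1 turned sign under the adrenergic centring. CLSTN2 had values of 4.77, 4.90, 4.77 and 5.09 in untreated arrays, 6.12, 6.23, 6.36 and 6.31 at 6 h, 6.58, 6.48, 6.46 and 6.46 at 24 h, and 7.37, 7.16, 7.28 and 7.20 at 48 h. The 4 groups did not overlap each other at any step. The rise was 1.37, 1.61 and 2.37 (SE 0.07; limma adjusted p 5.71e-11, 8.46e-12 and 6.66e-14), 5.17-fold at 48 h, with 0.76 gained between 24 h and 48 h (adjusted p = 1.58e-06). CLSTN2 is the gene whose printed promoter holds the cyclic AMP element in capitals, and its other probe set was dim, at -0.08 to 0.04.

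CLSTN3, whose mouse form binds neurexins, rose by 0.54, 0.67 and 0.87 (SE 0.07; limma adjusted p at most 2.44e-06), with a further step between 24 h and 48 h of 0.21 (adjusted p = 0.0263). That step was lost without any 1 of 4 arrays, 24 h replicates 2, 3 and 4 and 48 h replicate 4 (adjusted p 0.0735 to 0.0789). CLSTN3's other probe set had changes of -0.01, 0.27 and 0.19. CLSTN1, a cargo adaptor of axonal transport, rose by 0.19 at 6 h and 0.19 at 48 h (SE 0.05; adjusted p 0.0052 and 0.0049), while its other probe sets ran from -0.86 to 0.20 at 48 h.

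The NELL proteins, secreted and rich in EGF-like repeats, held the largest rise of all members. NELL1, which promotes bone formation and binds CNTNAP4 on mouse bone-forming cells, had values of 4.13, 3.96, 3.72 and 3.79 in untreated arrays, 5.98, 5.89, 5.96 and 5.82 at 6 h, 6.02, 6.13, 6.05 and 5.95 at 24 h, and 6.98, 6.72, 7.08 and 6.99 at 48 h. All exposed arrays were at least 1 log2 unit above all untreated ones, and the 48 h arrays were above all others. The rise was 2.01, 2.14 and 3.04 (SE 0.09; limma adjusted p 3.73e-12, 2.33e-12 and 2.77e-14), or 8.24-fold at 48 h, with 0.91 gained between 24 h and 48 h (adjusted p = 1.49e-06). Of its 3 other probe sets, 2 had changes of 1.98 and 1.36 at 48 h and the dim one was at -0.10. NELL2, a ligand of the axon guidance receptor ROBO3, rose by 0.62, 0.62 and 0.53 (SE 0.07; adjusted p at most 7.02e-06).

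**Figure D4:**
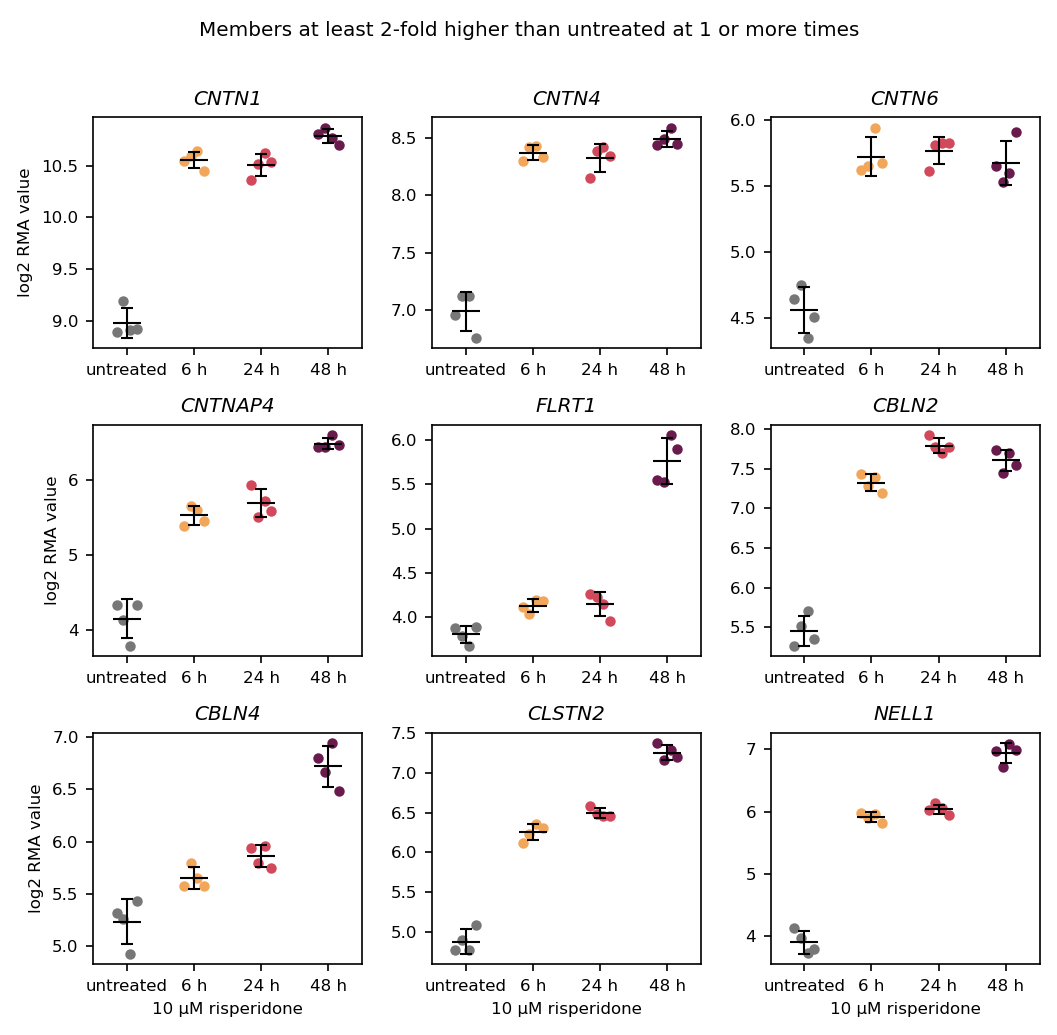
Log2 RMA values of the 9 members at least 2-fold higher than untreated at 1 or more times, by group, with 1 point per array and the mean ± SD of 4 arrays as bars; each panel has its own axis, which does not start at 0. CNTNAP4, FLRT1, CBLN4, CLSTN2 and NELL1 step up again at 48 h, while CNTN4 and CNTN6 keep overlapping or adjoining values in the 3 exposed groups.

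The classical adhesion molecules of axons rose by less than 2-fold wherever called. L1CAM, which guides axons and binds itself on neighbouring cells, rose by 0.60, 0.63 and 0.77 (SE 0.06; limma adjusted p at most 9.25e-08), with every exposed array above every untreated one, and its other probe set had changes of 0.15 to 0.22. NCAM1 rose by 0.26 at 6 h and 0.14 at 48 h (SE 0.05; adjusted p 0.000492 and 0.0332), and the 48 h call was lost without any 1 of 4 arrays, numbers 1 and 2 of the untreated and 3 and 4 of the 48 h group (adjusted p between 0.0741 and 0.1). NCAM2 was called at no time, with group means of 5.13, 5.17, 5.13 and 5.28 in untreated cells and at 6, 24 and 48 h. NCAM1's sign turned under the adrenergic centring at both times.

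CADM1, a nectin-like protein of synaptic and epithelial contacts, rose by 0.44, 0.53 and 0.57 (SE 0.04; limma adjusted p at most 1.15e-07), and its 4 other probe sets had changes of 0.41 to 0.69. CADM3 was called at 24 h alone, at 0.42 (SE 0.10; adjusted p = 0.0015), and at -0.01 under the adrenergic centring. The 2 other probe sets of CADM3 had smaller changes at 24 h, 0.04 and 0.17. The probe set used had values of 4.44, 4.41, 4.04 and 4.16 in untreated arrays, 4.56, 4.42, 4.40 and 4.54 at 6 h, 4.72, 4.81, 4.62 and 4.57 at 24 h, and 4.15, 4.59, 4.41 and 4.43 at 48 h. Only the 24 h arrays cleared the untreated ones, and the 48 h level was below the 24 h level by 0.29 (adjusted p = 0.0343), a call lost without any 1 of 4 arrays, replicates 1 and 2 of 24 h and 1 and 3 of 48 h (adjusted p 0.0587 to 0.125). CADM4, which myelinating glia use to hold the axon, rose by 0.38, 0.40 and 0.28 (SE 0.08; adjusted p 0.000451, 0.000293 and 0.00443), with its sign turned at each time under the adrenergic centring.

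The LRRN proteins, transmembrane proteins with leucine-rich repeats, were all higher at 6 h and 24 h as deposited, and LRRN3 at each time and LRRN1 at 6 h and 24 h turned sign under the adrenergic centring, as LRRN2 did at 6 h and 48 h. LRRN2 rose by 0.33, 0.52 and 0.45 (SE 0.09; limma adjusted p 0.0048, 9.55e-05 and 0.00026). LRRN3 had values of 11.60, 11.73, 11.64 and 11.64 in untreated arrays, 11.85, 12.04, 11.93 and 11.93 at 6 h, 11.71, 11.82, 11.82 and 11.82 at 24 h, and 11.79, 11.79, 11.81 and 11.76 at 48 h. The 6 h arrays were above all the others, and the 24 h arrays overlapped the untreated ones.

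LRRN3 rose by 0.29, 0.14 and 0.14 (SE 0.05; limma adjusted p 7.83e-05, 0.0199 and 0.0217), and its 48 h level was below its 6 h level by 0.15 (adjusted p = 0.0211). The calls of LRRN3 were lost at 24 h without untreated replicate 1 or 24 h replicates 2, 3 or 4, at 48 h without untreated replicate 1 or 48 h replicate 3, and between 48 h and 6 h without 6 h replicate 2, with adjusted p from 0.0504 to 0.0817 over these. LRRN1 rose by 0.24 at 6 h and 0.38 at 24 h (SE 0.09; adjusted p 0.0251 and 0.00136), and its 6 h call was lost without any 1 of 5 arrays, numbers 3 and 4 of the untreated and 2, 3 and 4 of the 6 h group (adjusted p between 0.0533 and 0.0959). The genes that LRRN3, FLRT3, CLSTN1 and CLSTN3 overlap in the genome are IMMP2L, MACROD2, PIK3CD and RBP5, and their changes against untreated cells ran from -0.32 to 0.60.

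The exposed groups also differed from each other, and with no untreated arrays labelled for each time, exposure and time in culture cannot be told apart here either. Between 24 h and 6 h, 1 member (2.38%) was higher, CBLN2, against 1.55% of all tested genes. None was lower in limma, against 0.855% of all tested genes. Between 48 h and 24 h, 11 members (26.2%) were higher, against 13.5% of all tested genes, and 4 (9.52%) were lower, against 15.1% of all tested genes. The largest steps up were FLRT1 at 1.61, NELL1 at 0.91 and CBLN4 at 0.86, and the members lower were CBLN1 at -0.45, LRRTM2 at -0.34, CADM3 at -0.29 and LRRN1 at -0.24. The LRRN1 call (adjusted p = 0.0475) was lost without any 1 of the 8 arrays of the 2 groups (adjusted p 0.0525 to 0.122).

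Between 48 h and 6 h, 18 members (42.9%) were higher, against 16.7% of all tested genes. The largest of these differences were FLRT1 at 1.63, CBLN4 at 1.07 and NELL1 at 1.03. The 2 lower members (4.76%), LRRTM2 and LRRN3, stand against 17% of all tested genes. Calls of 5 members between 48 h and 6 h were also lost when some single arrays were left out, with adjusted p over those arrays of 0.0502 to 0.0797 for CADM1 (any 1 of the 4 of 6 h, or 48 h replicate 1 or 2), 0.0515 to 0.0691 for CBLN2 (6 h replicates 2 and 4, 48 h replicates 1 and 3), and 0.0596 and 0.0651 for CNTN1 (6 h replicate 4, 48 h replicate 2). For L1CAM they were 0.0564 to 0.0856 (6 h replicates 2 and 3, 48 h replicate 4), and for NLGN3 0.052 to 0.0654 (6 h replicates 2 and 4, 48 h replicates 2, 3 and 4).

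**Figure D5:**
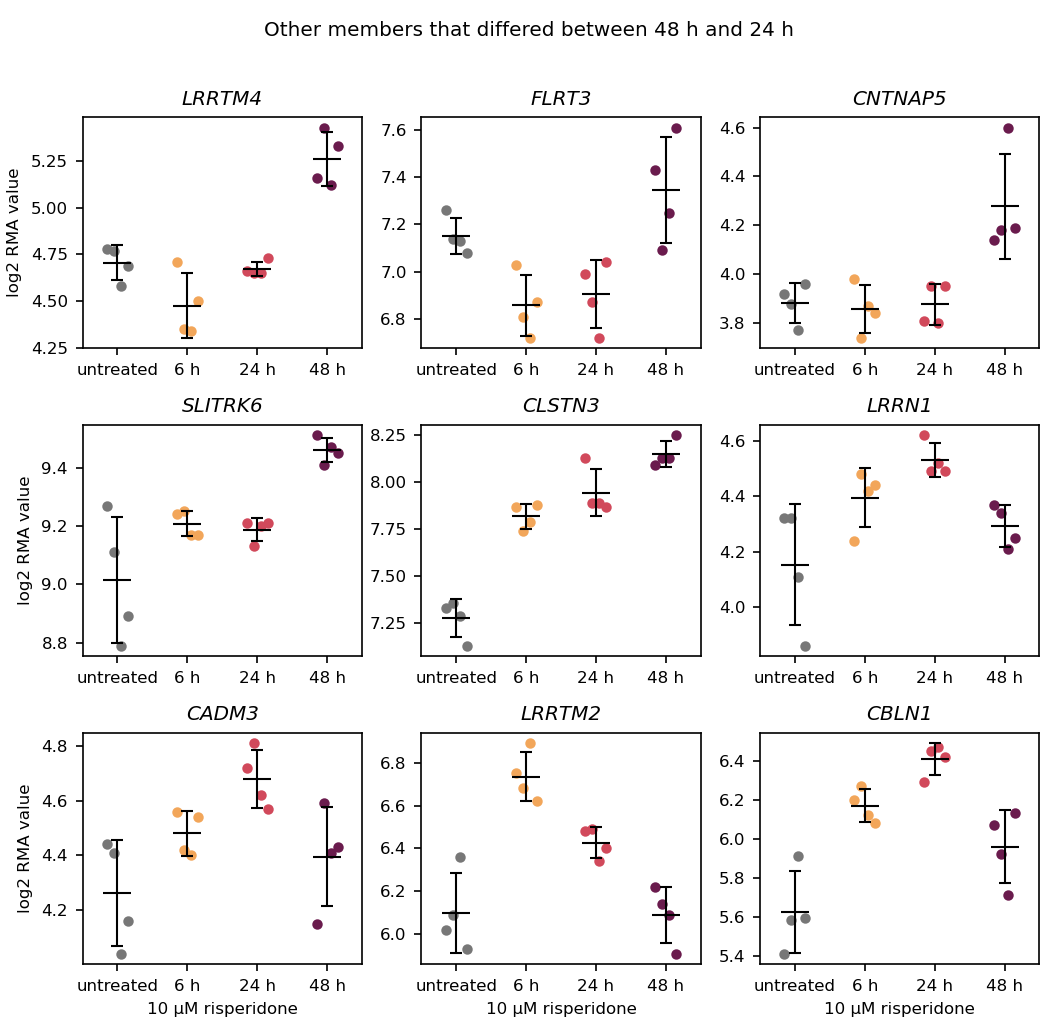
Log2 RMA values of 9 further members that differed between 48 h and 24 h of exposure, by group, with 1 point per array and the mean ± SD of 4 arrays as bars; each panel has its own axis, which does not start at 0. LRRTM4, FLRT3, CNTNAP5, SLITRK6 and CLSTN3 are higher at 48 h than at 24 h, while LRRN1, CADM3, LRRTM2 and CBLN1 are lower.

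The proteins that these organisers bind are given beside them. Of 40 binding partners and scaffolds, such as latrophilins, teneurins, UNC5 receptors, netrin-G ligands and ankyrins, 29 were tested. In limma 12, 12 and 14 of them were higher at 6, 24 and 48 h and 3, 4 and 4 were lower, with a median change of 0.07, 0.09 and 0.15. The shares higher were 41.4%, 41.4% and 48.3%, beside 36.6%, 35.3% and 36% of all tested genes, and those lower were 10.3%, 13.8% and 13.8%, beside 16.7%, 16.9% and 21%. Of the partners called at all 3 times, those with the largest mean rise over the 3 were LRRC4, the netrin-G2 ligand, at 1.07, 1.24 and 0.58 (SE 0.09), its relative LRRC4B at 0.58, 0.73 and 0.75, and the netrin receptor UNC5C at 0.48, 0.47 and 1.09. ANK3, the ankyrin that anchors L1CAM and sodium channels at the start of the axon, fell, with changes of -1.79, -1.75 and -1.80 (SE 0.09; adjusted p at most 5.11e-11), and TENM3, a teneurin, fell, with changes of -0.29, -0.65 and -0.31 (SE 0.08).

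Markers of the 2 cell identities described in this line moved with the groups as well. Of 12 adrenergic identity genes 10 were tested, and 10, 9 and 9 of these (100%, 90% and 90%) were higher at 6, 24 and 48 h. Of all tested genes 36.6%, 35.3% and 36% were higher. DBH, the enzyme that makes noradrenaline, was higher by 1.16, 1.34 and 1.74. The log2 of the summed level of the adrenergic genes was 15.29 to 15.45 in exposed arrays and 14.97 to 15.02 in untreated ones. All 12 mesenchymal identity genes were tested and 11 (91.7%) were lower at each time, beside 16.7%, 16.9% and 21% of all tested genes. PRRX1, a mesenchymal transcription factor, was at -5.10 and fibronectin (FN1) at -3.30 at 6 h. TWIST1 was called at 48 h alone, and was higher there by 0.165 (limma adjusted p = 0.00562). The log2 of the summed level of the mesenchymal genes was 13.6 to 13.8 in exposed arrays and 14.8 to 14.9 in untreated ones. The part of these markers in the members' changes was not tested. Of 5 leukocyte, 5 endothelial and 4 epithelial markers, 2, 3 and 2 were tested, and the others, PTPRC, CDH5 and CDH1 among them, were dim. CD68 fell, with changes of -1.51, -1.47 and -1.53, KDR was higher by 0.21 at 6 h alone (limma adjusted p = 0.0124), and the other 5 tested were called at no time. Over the 13680 tested genes, arrays of a group correlated at 0.996 to 0.999 (Pearson), and untreated with exposed arrays at 0.968 to 0.978.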

How the data were processed

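Total RNA of 16 SK-N-SH samples was measured on 1-colour arrays. The deposited table holds log2 values made by the authors with RMA, per the submitters' processing notes, with the software and its version not given in the sources used here; RMA forces the arrays to a common distribution, so a change in total RNA per cell is not seen. Its 49386 probe sets include 93 controls, 45253 that name 1 gene, 1327 that name several and 2713 that name none, by GEO's platform annotation; 45172 of them matched a RefSeq gene and no symbol changed. The 13680 genes outside the lowest 25% were fitted with limma 3.58.1 in R 4.3.3 (lmFit, eBayes), 16 arrays in 1 fit, for 6 contrasts with Benjamini-Hochberg adjustment within each; the fit was tested on simulated data. No other covariate was used. Array number limits the precision.

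The members and lists were chosen with earlier results of these data known. Members are named by a rule: each is accounted for, values by array go to those changed by at least 2-fold or among the 3 largest in each direction of a comparison between times (LRRTM4 was added after its values were seen), and loss of a call on leaving out an array is stated. Same-numbered arrays did not deviate together (r from -0.15 to 0.18, median 0.05), so no pairing was used. Promoters are from RefSeq; 38 of 47 members matched. Alternatives tried were other scalings, filters, probe set rules, thresholds, array weights, a replicate block and leaving out each array.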

Additional observations from a re-analysis of the deposited data

Results flagged for a closer look

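In 15 of 168 groups of 4 values of a member, 1 array stood far from the other 3, where chance gives about 1 in 20. In untreated cells, replicate 2 had 9.19 for CNTN1, against 8.89 to 8.92 in the others, and 3.87 for CNTN2, against 4.00 to 4.01. At 6 h, CNTN6 was at 5.94 in replicate 3, NCAM2 at 5.35 in replicate 1, and replicate 4 had 5.23 for CNTNAP1 and 3.32 for SLITRK5. At 24 h, replicate 1 had 5.61 for CNTN6, 11.71 for LRRN3, 6.58 for CLSTN2 and 8.13 for CLSTN3. SLITRK6 was at 9.13 in the 24 h replicate 2 array, and LRRTM4 at 4.73 in replicate 4. At 48 h, CNTNAP5 was at 4.6 in replicate 3, and replicate 4 had 9.93 for CLSTN1 and 10.71 for L1CAM.

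Between exposure times, which have no untreated arrays of their own, 23 members differed in limma, and the largest called difference of each is given on the log2 scale, later time minus earlier. Between 24 h and 6 h it was 0.47 for CBLN2. Between 48 h and 24 h it was 0.28 for CNTN1, 0.27 for SLITRK6, -0.45 for CBLN1, -0.24 for LRRN1 and -0.29 for CADM3. Between 48 h and 6 h, FLRT1 differed by 1.63, CBLN4 by 1.07, NELL1 by 1.03, CLSTN2 by 1.00, CNTNAP4 by 0.96 and LRRTM4 by 0.79. Smaller rises were 0.49 for FLRT3, 0.44 for CNTNAP2, 0.42 for CNTNAP5, 0.33 for CNTN3, 0.33 for CLSTN3, 0.28 for CNTNAP3, 0.19 for NLGN3, 0.17 for L1CAM and 0.12 for CADM1. LRRTM2 differed by -0.65 and LRRN3 by -0.15 between 48 h and 6 h.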

How the results depend on the processing

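Every change of at least 1 on the log2 scale against untreated kept its direction and its call in every alternative in which its gene was tested. Of 135 calls, 114 held with each array left out in turn and 135 of 135 held with the replicate block. The replicate block gave 26 members higher and 8 lower at 6 h, 25 and 8 at 24 h, and 27 and 7 at 48 h. Of the 13680 tested genes it gave 5027 and 2298, 4865 and 2322, and 4948 and 2882. Leaving out arrays gave 2 to 3 members lower between 48 h and 24 h and 1 to 4 between 48 h and 6 h. Over all tested genes the lower calls then numbered 1702 to 2114 and 1963 to 2307. With the mean of all probe sets of a gene, 4, 5 and 4 members were lower than untreated at 6, 24 and 48 h. With it 2 were higher and 2 lower between 24 h and 6 h, and 4 were lower between 48 h and 6 h. Of the 13680 genes tested that way, 2180, 2244 and 2779 were lower than untreated. Between 24 h and 6 h, 223 of these genes were higher and 246 lower, and 2267 were lower between 48 h and 6 h. LRRTM4 at 6 h turned to 0.021 and CLSTN1 at 48 h to -0.11. With every probe set tested by itself, 3 members were lower between 24 h and 6 h and 5 between 48 h and 6 h. Of the 33940 probe sets tested so, 460 and 4918 were lower. With the lowest 50% of genes left out, fewer members were tested: 2 were lower at 6 h, 15 higher and 2 lower at 24 h, 17 higher and 1 lower at 48 h, 2 lower between 48 h and 24 h, and 11 higher between 48 h and 6 h. Of the 9120 genes tested then, 1726 were lower at 6 h, 4009 higher and 1761 lower at 24 h, and 4057 higher and 2238 lower at 48 h. Between 48 h and 24 h 2033 of them were lower, and between 48 h and 6 h 2115 were higher. Between 24 h and 6 h, 1 member was lower with quantile normalization applied again, with eBayes' trend and robust options, and with only the 8 arrays compared. Of all tested genes 135, 139 and 171 were lower there. Array weights gave 3 members higher and 2 lower between 24 h and 6 h, and 5 lower between 48 h and 6 h. Over all tested genes they gave 508 higher and 331 lower, and 2858 lower. At an adjusted p of 0.01, 2 members were lower between 48 h and 24 h, and 11 higher and 1 lower between 48 h and 6 h. Over all tested genes that threshold gave 1226 lower, and 1537 higher and 1460 lower. Cyclic loess lost 13 of 135 calls.

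Centring on the adrenergic identity genes was chosen after the data had been seen. It gave 12 members higher and 19 lower at 6 h, 12 and 20 at 24 h, and 12 and 21 at 48 h. Of the 13680 tested genes, 697 were higher and 10023 lower at 6 h, 681 and 10545 at 24 h, and 872 and 10874 at 48 h. Between 48 h and 6 h, 7 members were lower, beside 4044 of all tested genes. The centring turned 28 changes of members. At 6 h these were NLGN2 -0.22, NLGN3 -0.0708, FLRT1 -0.0708, SLITRK6 -0.20, LRRN1 -0.15, LRRN2 -0.068, LRRN3 -0.11, CLSTN1 -0.21, NCAM1 -0.13 and CADM4 -0.016. At 24 h they were CNTN2 -0.00275, CNTNAP3 -0.19, FLRT1 -0.083, LRRTM2 -0.10, LRRN1 -0.045, LRRN3 -0.28, CADM3 -0.00525 and CADM4 -0.028. At 48 h they were CNTN2 -0.19, CNTNAP3 -0.047, CNTNAP5 -0.080, CBLN1 -0.14, SLITRK6 -0.030, LRRN2 -0.022, LRRN3 -0.34, CLSTN1 -0.29, NCAM1 -0.34 and CADM4 -0.20. By construction this centring sets the rise of the adrenergic genes to 0. CNTN3, FLRT2, NLGN1 and SLITRK5 lie near the bottom of the scale. Their exposed values are near the lowest on the arrays, where a further fall cannot be read.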

Other observations

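Genes of mature neurons and of glia were read beside the members. Of 6 genes of central neurons and synapse formation, 4, 3 and 3 were higher at 6, 24 and 48 h and 0, 0 and 1 lower in limma, with median changes of 0.45, 0.32 and 0.38. The shares higher were 66.7%, 50% and 50%, beside 36.6%, 35.3% and 36% of all tested genes. Those lower were 0%, 0% and 16.7%, beside 16.7%, 16.9% and 21%. With 6 genes, nothing is read from these shares. Of 7 Schwann and satellite glia genes 2 were tested, with 1, 2 and 1 higher, too few genes to set against a share. Among members that neighbour each other, LRRN2 and CNTN2 on chromosome 1 have 1 protein-coding gene between them, and both were higher at each time as deposited.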
